A study of Mus musculus with 6 samples.

Results

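The 97 genes described here are 31 with UBE2 names, the ubiquitin-conjugating enzymes and a few relatives, and 66 with RNF names, the RING finger proteins. They were chosen by name and by a mean level of at least 1 TPM (transcript abundance corrected for length, as a share of a fixed total in each library) over 6 libraries of mouse ear epidermis, out of 118 genes with such names and 24700 named genes in all. That rule reads names and the mean level over all libraries, and it was drawn up with earlier results of these data known. Transcripts deposited without a gene symbol were named from RefSeq, which supplied 47 of the 210 transcripts of these genes. Of the 21 genes with such names under 1 TPM, 8 were listed at 0 in every library. Nearest to the level on the inside were Rnf112 with a mean of 1.31 TPM and Rnf152 with 1.36 TPM, and on the outside Ube2u with 0.845 TPM and Ube2ql1 with 0.780 TPM. Ube2u had 0.338, 4.53 and 0.197 TPM in ETA sheets and was listed at 0 in all epidermal sheets. Averages under 1 TPM in one group were found for 9 members in ETA sheets and 1 in epidermal sheets, so these passed the level through the other group alone. Of the 9, all but Rnf112 are among the members called lower below. The direction of those calls was set by how the genes passed. The pseudogene Ube2d-ps was left out.

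Ubiquitin is a small protein that is attached to other proteins in a relay: an activating enzyme (E1) loads it, a conjugating enzyme (E2) carries it, and a ligase (E3) brings the E2 to the target. Most RING finger proteins are ligases that hold a loaded E2 beside its target, and the pairing of E2 and E3 decides which kind of chain is built, for instance chains through lysine 48 that send proteins to the proteasome or chains through lysine 63 that serve in signalling and repair. In the granular layer keratinocytes take their nucleus and organelles apart before they become dead surface cells, which makes protein turnover a known theme of the tissue.

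The tested libraries were 3 ETA sheets, the upper epidermis with the granular cells called SG1 and SG2, freed with exfoliative toxin A. The libraries they were set against were 3 epidermal sheets, the whole epidermis freed with dispase. All came from ears of female C57BL6/N mice of 8 weeks. Layer and enzyme solution differed together and cannot be told apart. No label ties the sheets to animals, so the spread behind each p-value is that among these libraries and could be technical. In bulk RNA, fewer cells of a type and less RNA per cell cannot be told apart either. In 4 of the 6 columns the header named another sheet than the title of the sample whose number it carries, and in 2 it named the other group. Groups followed the titles, and with groups by header names limma called 0 of the members, with 0 at an unadjusted p under 0.05. In that grouping only 73 of all 12558 genes tested were at an unadjusted p under 0.05. Markers of the layers separated the titled groups. Summed TPM of 6 basal keratinocyte genes was 133 to 215 in ETA sheets and 14616 to 17022 in epidermal sheets, and that of 8 granular genes was 108347 to 123286 in ETA sheets and 5241 to 7397 in epidermal sheets. Other cells moved too. Of 6 erythroid genes all 6 were called higher in ETA sheets, with sums of 10014, 5195 and 24762 TPM in ETA sheets and 252 to 477 TPM in epidermal sheets. Of 6 fibroblast genes 5 were tested and called higher, with sums of 56.0 to 67.0 TPM in ETA sheets and 7.27 to 10.8 TPM in epidermal sheets. Sums of markers of sebaceous gland, hair follicle, melanocytes, T cells and Langerhans cells were lower in every ETA sheet than in any epidermal sheet, and Mlana was listed at 0 in all ETA sheets. Their part in the results below was not tested.

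Most members fell in ETA sheets and a small group rose steeply. With limma on log2(TPM + 1) over 12558 genes, at a Benjamini-Hochberg adjusted p under 0.05, 17 of the 97 members (17.5%) were called higher, against 10.5% of all genes tested, and 59 (60.8%) were called lower, against 63.2% of all genes tested. The remaining 21 were not called. The median log2 fold change was -1.11 over all members, risers included, and -1.31 over all genes tested. The median member thus lay near the shift of the median gene. Because TPM are shares of a fixed total, each library was also centred on its median log2 value. Then 42 members (43.3%) were higher, against 29.9% of all genes tested, and 14 (14.4%) were lower, against 19.5% of all genes tested. Trimmed-mean scaling gave 39 members higher and 21 lower, against 24.5% and 26.1% of all genes tested. All 17 rises were higher both as deposited and after median centring. After that centring 14 of the 59 falls stayed lower, 45 did not, and 7 of those turned to higher. Of all genes tested, 43.7% were lower as deposited and not after centring, and 3.79% turned to higher. Centring raises every log2 fold change alike, so a rise can hardly lose its call and only the falls are put to a test by it. The median of all genes was 0.15 after centring.

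By family, UBE2 members were 6 higher (19.4%), 17 lower (54.8%) and 8 not called, with a median log2 fold change of -0.86. RNF members were 11 higher (16.7%), 42 lower (63.6%) and 13 not called, with a median of -1.25, against 10.5% higher and 63.2% lower among all genes tested. After centring 16 UBE2 members were higher and 5 lower, and 26 RNF members were higher and 9 lower. The summed TPM of the 31 UBE2 members was 2520.5, 2751 and 2704 in ETA sheets and 1960.5, 2179 and 2063 in epidermal sheets, a ratio of means of 1.29. The ETA sheets lay above the epidermal sheets by this sum, but that rested on Ube2d3, most of whose transcripts were deposited without a symbol; with deposited symbols alone the ratio was 0.959. The 66 RNF members summed to 6781, 8339.9 and 8166 TPM in ETA sheets and 2527, 2842 and 2798 TPM in epidermal sheets, a ratio of 2.85. Rnf227, Rnf39, Rnf225 and Rnf11 made up most of the RNF total in ETA sheets. These 4 genes together had 5908 ± 891 TPM (SD, n = 3) in ETA sheets, against 563 ± 46.7 TPM (SD, n = 3) in epidermal sheets. Without Rnf227 the ratio of the RNF sums was 1.87. Both ratios moved with the scaling and the grouping: trimmed-mean scaling gave 3.48 for the UBE2 sums and 7.77 for the RNF sums, and groups by header names gave 1.13 and 1.59. At 100 TPM or more stood 15 members in ETA sheets and 15 in epidermal sheets.

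**Figure D1:**
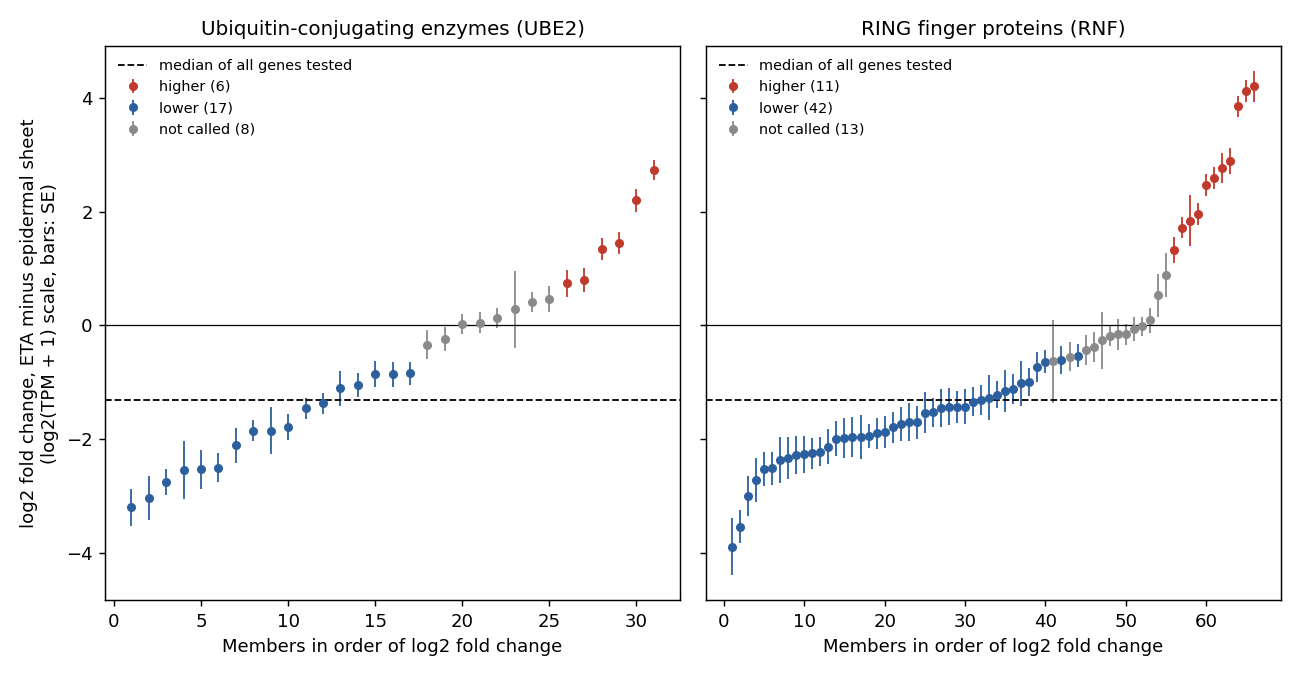
Log2 fold change (ETA minus epidermal sheet, log2(TPM + 1) scale, bars SE) of the 31 UBE2 members (left) and the 66 RNF members (right), each in rising order and coloured by call. Members spread widely on both sides of the dashed median of all genes tested (-1.31), down to -3.89 for Rnf141. The right-hand ends hold 6 UBE2 and 11 RNF members called higher, up to 4.20 for Rnf223.

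The steepest rises were of RNF genes for which no role is stated here. Rnf223 had 94.0, 147 and 116 TPM in ETA sheets and 5.86, 7.02 and 3.80 TPM in epidermal sheets. Every ETA sheet lay far above every epidermal sheet, a 21.4-fold difference of means (log2 fold change 4.20 ± 0.27 SE, limma adjusted p = 8.89e-06). Rnf225 had 776, 998 and 959 TPM in ETA sheets and 51.9, 60.1 and 42.4 TPM in epidermal sheets (17.7-fold, log2 4.12 ± 0.20 SE, limma adjusted p = 4.11e-06). By mean level it stood at rank 115 of all genes in ETA sheets and at rank 2632 in epidermal sheets. Rnf39 had 855, 1097 and 1184 TPM in ETA sheets and 114, 177 and 133 TPM in epidermal sheets (7.39-fold, log2 2.89 ± 0.22 SE, limma adjusted p = 1.61e-05). Rnf222 had 77.2, 108 and 123 TPM in ETA sheets and 11.4, 12.9 and 18.3 TPM in epidermal sheets (7.23-fold). Rnf208 was less extreme, with 171, 217 and 241 TPM in ETA sheets and 51.5, 54.2 and 52.0 TPM in epidermal sheets (3.99-fold). All of these come from the list of largest rises, for which groups without overlap were a condition, so their separation is not a result. In this direction 11.2% of all genes tested had no overlap. The lowest ETA sheet value of each was that of replicate 1.

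Rnf227 was the most abundant member in both groups. It had 2465, 3506 and 3267 TPM in ETA sheets and 239, 216 and 182 TPM in epidermal sheets (14.5-fold, log2 3.85 ± 0.19 SE, limma adjusted p = 4.11e-06). It held 26.5% to 31.6% of the summed TPM of the members in ETA sheets and 3.73% to 5.32% in epidermal sheets, and stood at rank 31 of all genes in ETA sheets and rank 592 in epidermal sheets. Its single deposited transcript is a noncoding RefSeq record with no symbol in the table, and the RefSeq annotation of GRCm38.p6 lists the gene as a long noncoding RNA with the synonym Chd3os, so the value is of an RNA whose coding status is not settled by these data. Chd3, the chromatin remodeller gene beside it and named here after its values were seen, went the other way, with 0.743, 1.35 and 0.938 TPM in ETA sheets and 9.74, 10.9 and 19.0 TPM in epidermal sheets (log2 -2.78 ± 0.33 SE, limma adjusted p = 0.000127). The kit keeps strand, but the sources used here do not say whether the quantification used it, so reads of the neighbours may not be fully separated.

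Among risers with a described role, Rnf11 had 795, 947 and 876 TPM in ETA sheets and 125, 163 and 186 TPM in epidermal sheets (5.52-fold, log2 2.47 ± 0.19 SE, limma adjusted p = 1.89e-05). In human cells it is part of the A20 complex, which restrains NF-kB signalling. Rnf103, an endoplasmic reticulum membrane ligase, had 119, 137 and 148 TPM in ETA sheets and 17.9, 23.3 and 23.6 TPM in epidermal sheets (6.22-fold). Rnf19b, a ligase of the RING-between-RING (RBR) class, which passes ubiquitin through a cysteine of its own, had 279.7, 369 and 332 TPM in ETA sheets and 98.2, 108 and 88.5 TPM in epidermal sheets (3.32-fold, log2 1.72 ± 0.18 SE). Rnf185, which works in the disposal of misfolded proteins from the endoplasmic reticulum, had 37.9, 53.7 and 42.0 TPM in ETA sheets and 14.0, 18.0 and 19.7 TPM in epidermal sheets (2.59-fold). Rnf11 and Rnf103 are also of the list of largest rises, where this separation was a condition. In Rnf19b and Rnf185, which are not, no ETA sheet value reached down to the epidermal sheets either.

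**Figure D2:**
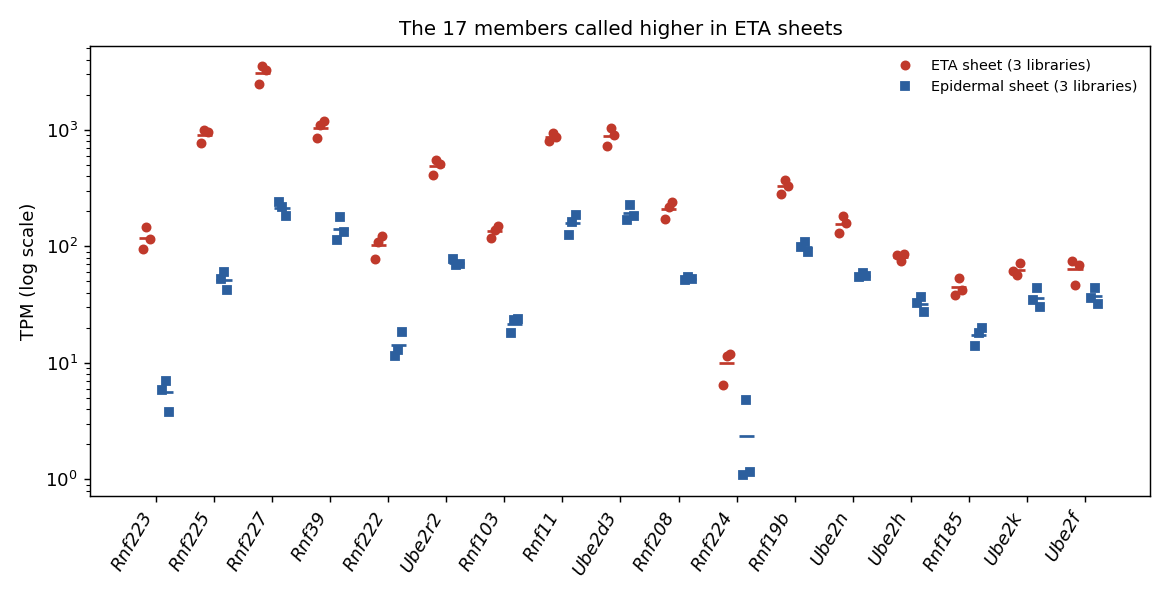
TPM (log axis) of the 17 members called higher in ETA sheets, in order of log2 fold change; circles are the 3 ETA sheets, squares the 3 epidermal sheets and lines the group means. In all 17 genes the ETA sheets lie above the epidermal sheets, from 21.4-fold for Rnf223 to 1.70-fold for Ube2f.

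The stretches before the start sites are shown because those of some risers with RNF names held few CpGs. RefSeq windows of the 250 bases before the start (GRCm38.p6) were at hand for 76 of the 97 members, 21 of them with more than 1 window, and were matched by symbol. Rnf227 and Rnf11 had none. Capitals mark matches, on either strand, to the letters searched. The TATA box was searched as TATAAA. The GC box was searched as GGGCGG and may overlap with itself. Sites of the factor AP-1 were searched as TGANTCA. Sites of grainyhead-like factors, known in epidermal differentiation, were searched as AACCNGTT. The last searches were for CCAAT, a common promoter box, and for the box CCACCC of KLF-type factors. The first 3 windows are of risers with few CpGs, and the last 2 are of a riser and a faller with more, for comparison; each reads 5′ to 3′ on its gene's strand.
Rnf223 (chr4:156130265-156130514, plus strand): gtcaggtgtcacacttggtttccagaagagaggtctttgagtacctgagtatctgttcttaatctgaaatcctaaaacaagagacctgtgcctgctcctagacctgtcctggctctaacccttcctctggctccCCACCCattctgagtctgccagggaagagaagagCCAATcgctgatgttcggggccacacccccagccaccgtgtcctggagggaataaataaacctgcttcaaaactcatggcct
Rnf225 (chr7:12927166-12927415, plus strand): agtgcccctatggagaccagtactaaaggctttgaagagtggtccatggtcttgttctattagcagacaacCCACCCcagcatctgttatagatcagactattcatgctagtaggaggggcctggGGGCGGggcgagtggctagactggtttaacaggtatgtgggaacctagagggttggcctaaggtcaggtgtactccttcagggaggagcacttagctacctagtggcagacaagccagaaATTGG
Rnf222 (chr11:68888303-68888552, plus strand): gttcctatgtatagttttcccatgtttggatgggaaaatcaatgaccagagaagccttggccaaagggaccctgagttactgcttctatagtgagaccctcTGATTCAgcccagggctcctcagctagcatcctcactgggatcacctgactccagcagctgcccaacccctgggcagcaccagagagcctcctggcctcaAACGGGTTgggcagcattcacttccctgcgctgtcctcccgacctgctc
Ube2r2 (chr4:41135771-41136020, plus strand): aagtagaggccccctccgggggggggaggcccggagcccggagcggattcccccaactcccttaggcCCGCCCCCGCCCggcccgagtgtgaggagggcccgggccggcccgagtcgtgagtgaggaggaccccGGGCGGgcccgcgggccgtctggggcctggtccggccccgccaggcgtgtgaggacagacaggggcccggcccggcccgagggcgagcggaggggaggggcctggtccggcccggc
Ube2e1 (chr14:18331845-18332094, minus strand): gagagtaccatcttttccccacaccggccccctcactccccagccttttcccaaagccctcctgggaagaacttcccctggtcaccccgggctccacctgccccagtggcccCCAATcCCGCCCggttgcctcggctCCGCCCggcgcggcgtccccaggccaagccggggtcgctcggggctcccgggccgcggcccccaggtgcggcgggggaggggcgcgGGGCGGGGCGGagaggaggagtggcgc

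The CpG content of these stretches, observed over expected from their C and G content, was 0.183 for Rnf223, 0.123 for Rnf225 and 0.157 for Rnf222, with 3, 2 and 3 CpGs in the window. Ube2r2 had 0.676 with 27 CpGs and Ube2e1 0.650 with 23. Of the 9 windows of RNF members called higher, Rnf185, Rnf224 and Rnf208 were also low (0.243, 0.253 and 0.315), whereas Rnf39, Rnf103 and Rnf19b had 0.758, 0.739 and 0.870. The median of these 9 windows was 0.253, against 0.837 over the 11 windows of UBE2 members called higher, 0.781 over the windows of members called lower, 0.566 over those of all genes called higher and 0.710 over those of all genes tested. Over all 20 windows of members called higher the median was 0.754, so the risers as a whole were not low. No test was made of these differences, and low values also occurred among members called lower. Of the windows of genes tested, 7.23% held the TATA box, 56.7% the GC box, 4.92% the AP-1 letters, 1.66% the grainyhead-like letters, 35.3% the CCAAT box and 32.8% the KLF-type box. Of the 20 windows of members called higher, 1 held the AP-1 letters and 1 the grainyhead-like letters, both times that of Rnf222. A match is a description of letters and not of a bound site.

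**Figure D3:**
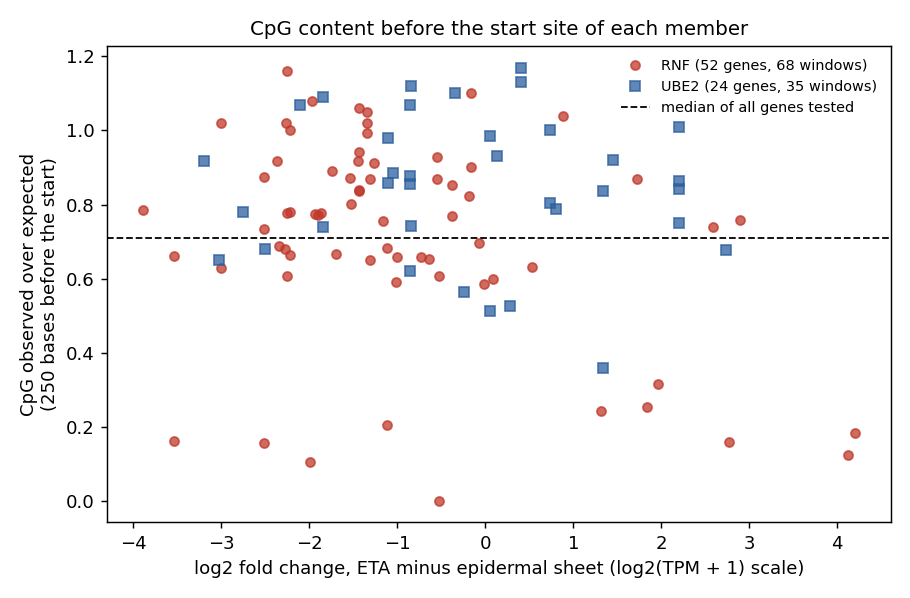
CpG observed over expected in the 250 bases before the start (y axis) against log2 fold change (x axis, ETA minus epidermal sheet) for each RefSeq window of 52 RNF and 24 UBE2 members. The windows of Rnf223, Rnf225 and Rnf222 lie at the lower right, below the dashed median of all genes tested (0.710), and the lowest UBE2 window is that of Ube2h at 0.358.

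The 6 E2s called higher were Ube2r2, Ube2d3, Ube2n, Ube2h, Ube2k and Ube2f, which have several roles. Ube2r2, an E2 of cullin-RING ligases that extends lysine 48 chains, had 408, 553 and 508 TPM in ETA sheets and 77.9, 68.6 and 70.8 TPM in epidermal sheets (6.76-fold, log2 2.73 ± 0.18 SE, limma adjusted p = 9.98e-06). Ube2k, which also builds lysine 48 chains, had 60.9, 56.5 and 72.1 TPM in ETA sheets and 34.7, 43.7 and 30.1 TPM in epidermal sheets (1.75-fold, limma adjusted p = 0.00878). Of the 6 tested E2s of lysine 48 chains and degradation, 2 rose and 2 fell, and the median change was -0.16 on the log2 scale. The fallers were Ube2g1 and Ube2j2. Ube2g1 averaged 19.7 TPM in ETA sheets and 41.9 TPM in epidermal sheets (log2 -1.05). Ube2j2, of the endoplasmic reticulum, averaged 14.4 TPM in ETA sheets and 26.8 TPM in epidermal sheets (log2 -0.84). After centring 5 of the 6 were higher and 0 lower, Ube2j2 among the higher. The shares of all genes tested were 10.5% higher and 63.2% lower as deposited, and 29.9% and 19.5% after centring.

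Ube2n, the E2 of lysine 63 chains, had 130, 183 and 157 TPM in ETA sheets and 54.0, 58.9 and 55.2 TPM in epidermal sheets (2.80-fold, log2 1.45 ± 0.19 SE, limma adjusted p = 0.000200). It builds such chains with one of a pair of inactive E2 variants. Ube2v1 had 165, 138 and 143 TPM in ETA sheets and 129, 141 and 137 TPM in epidermal sheets, with groups that overlap (limma adjusted p = 0.503), and was called higher after centring (log2 1.59), as was Ube2n (log2 2.92). Ube2v2 had 5.84, 4.90 and 4.88 TPM in ETA sheets and 18.9, 22.8 and 19.1 TPM in epidermal sheets, called lower (log2 -1.78 ± 0.23 SE, limma adjusted p = 0.000180) and not called after centring (log2 -0.31). By mean TPM Ube2n thus stood below Ube2v1 in epidermal sheets and close to it in ETA sheets.

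The UBE2D and UBE2E families, E2s that serve a broad range of ligases, were split between their members. Ube2d3 had 722, 1029 and 897 TPM in ETA sheets and 168, 225 and 181 TPM in epidermal sheets, which made it the most abundant E2 in ETA sheets (4.62-fold, log2 2.20 ± 0.20 SE, limma adjusted p = 3.39e-05). Its relative Ube2d1 had 5.79, 3.94 and 4.16 TPM in ETA sheets and 40.2, 35.6 and 34.1 TPM in epidermal sheets (log2 -2.75 ± 0.23 SE, limma adjusted p = 2.61e-05), and fell after centring too (log2 -1.29). Ube2d2a had 36.1, 29.5 and 32.3 TPM in ETA sheets and 86.6, 91.8 and 95.9 TPM in epidermal sheets (log2 -1.46 ± 0.18 SE), a change that came to 0.00 after centring. The 3 genes thus had 3 patterns: a rise, a fall beyond the median gene and a fall like that of the median gene. These genes have closely similar coding sequences, so reads of 25 bp may have been divided between them, and single values are uncertain to that degree.

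In the UBE2E family Ube2e1 had 22.7, 6.53 and 17.4 TPM in ETA sheets and 104, 128 and 132 TPM in epidermal sheets (log2 -3.03 ± 0.39 SE, limma adjusted p = 0.000187; -1.57 after centring). Ube2e3 had 25.8, 8.90 and 13.2 TPM in ETA sheets and 83.7, 93.3 and 90.4 TPM in epidermal sheets (log2 -2.53 ± 0.34 SE; -1.07 after centring). Both were lowest in ETA sheet replicate 2. Ube2e2 had 79.3, 82.7 and 74.4 TPM in ETA sheets and 51.4, 59.8 and 66.2 TPM in epidermal sheets, without overlap but not called as deposited (limma adjusted p = 0.0684), and was higher after centring (log2 1.88). In epidermal sheets Ube2e1 was the most abundant of the 3 by TPM, and in ETA sheets Ube2e2 was.

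The deposited transcripts of Ube2d3 did not rise alike. The transcript that carries the symbol in the table had 80.1, 75.6 and 96.0 TPM in ETA sheets and 46.8, 100.1 and 71.5 TPM in epidermal sheets, with groups that overlap. Another, named by its RefSeq record, had 430.4, 656 and 550.2 TPM in ETA sheets and 51.0, 39.8 and 25.2 TPM in epidermal sheets. It made up 59.6% to 63.8% of the gene's TPM in ETA sheets and 14.0% to 30.4% in epidermal sheets, while the share of the transcript with the symbol was 7.35% to 11.1% in ETA sheets and 27.9% to 44.5% in epidermal sheets. From the transcript with the symbol alone the log2 fold change of Ube2d3 was 0.26, not called. The split of paired 25 bp reads between transcripts that share most of their sequence is itself an estimate.

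**Figure D4:**
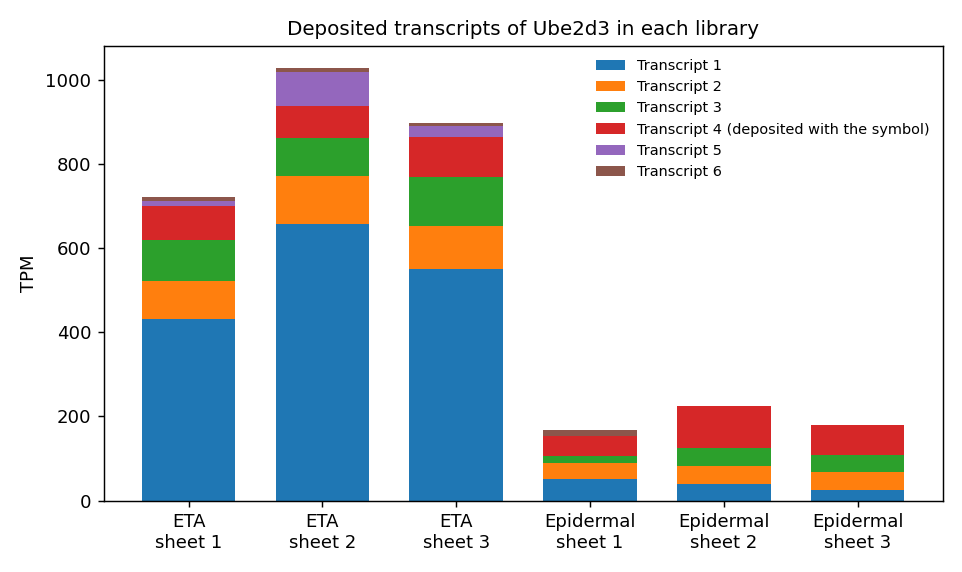
TPM of the 6 deposited Ube2d3 transcripts, stacked for each library, with ETA sheets at left and epidermal sheets at right. Transcript 1 accounts for most of the height in ETA sheets (430.4 to 656 TPM, against 25.2 to 51.0 TPM in epidermal sheets), and transcript 4, the one deposited with the symbol, has 75.6 to 96.0 TPM in ETA sheets and 46.8 to 100.1 TPM in epidermal sheets.

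Of the 46 members with several deposited transcripts, the most abundant one by group mean differed between the groups in 11. In 3 it was one transcript in every ETA sheet and another in every epidermal sheet. The shares over all genes with several transcripts were not counted, so these counts cannot be read as a trait of the members. In Rnf185 a transcript that held 97.3%, 71.7% and 57.4% of the gene's TPM in ETA sheets held 0%, 0% and 0.417% in epidermal sheets, and another held 2.71% to 40.3% in ETA sheets and 99.6% to 100% in epidermal sheets. In Rnf14, an RBR ligase, the leading transcript of ETA sheets held 66.4% to 100% there, and the one that led in epidermal sheets held 0% to 33.6% in ETA sheets and 52.0% to 99.6% in epidermal sheets. Rnf170, a ligase of inositol trisphosphate receptors in the endoplasmic reticulum, had a leading coding record in ETA sheets with 45.4% to 49.7% of its TPM, and a noncoding record in epidermal sheets with 46.9% to 100%. In epidermal sheet replicate 2 a further record held 40.9%, close to the 47.6% of the noncoding one. As a whole gene Rnf14 fell to 8.02, 7.15 and 3.87 TPM in ETA sheets against 23.9, 29.1 and 38.9 TPM in epidermal sheets, whereas Rnf170 was not called. Its direction depended on the transcripts, since Rnf170 had a log2 fold change of -0.43 summed, 1.63 with deposited symbols only and -2.78 from its largest transcript alone.

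E2s of other modifiers and of single partners moved in both directions. Ube2f and Ube2m both carry NEDD8, a ubiquitin-like protein that switches cullin ligases on. Ube2f had 74.7, 46.7 and 68.6 TPM in ETA sheets and 35.8, 43.8 and 31.9 TPM in epidermal sheets (1.70-fold, log2 0.74 ± 0.24 SE, limma adjusted p = 0.0209), a call lost on leaving out ETA sheet replicate 1 or 3 (log2 0.61 and 0.67) or epidermal sheet replicate 1 or 3 (log2 0.72 and 0.64). Ube2m had 80.9, 50.3 and 61.5 TPM in ETA sheets and 105, 115 and 125 TPM in epidermal sheets, lower as deposited (log2 -0.86 ± 0.22 SE) and higher after centring (log2 0.61). Rnf7, the RING subunit that pairs with Ube2f on cullin 5, had 40.6, 30.1 and 42.7 TPM in ETA sheets and 141, 129 and 171 TPM in epidermal sheets (log2 -1.94 ± 0.21 SE, limma adjusted p = 8.13e-05; -0.47 after centring, not called). Ube2f and Rnf7 were thus called in opposite directions as deposited. Ube2h, the E2 of the CTLH ligase complex, had 83.4, 75.5 and 86.0 TPM in ETA sheets and 32.3, 36.4 and 27.1 TPM in epidermal sheets (2.56-fold, log2 1.34 ± 0.19 SE, limma adjusted p = 0.000350). Erythroid sums were higher in ETA sheets too, and their part in this rise was not tested.

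Several abundant members had nearly equal TPM in both groups, and so stood above the median gene. Ube2b, one of the E2s of histone H2B, had 145, 113 and 128 TPM in ETA sheets and 118, 125 and 127 TPM in epidermal sheets (limma adjusted p = 0.785). Rnf10, a ligase of small ribosomal subunit proteins, had 134, 115 and 117 TPM in ETA sheets and 119.6, 133 and 119 TPM in epidermal sheets (limma adjusted p = 0.911). Ube2l3, an E2 that serves HECT and RBR ligases, had 81.3, 58.5 and 88.2 TPM in ETA sheets and 85.2, 89.2 and 91.7 TPM in epidermal sheets. Rnf167, a ligase of endosome and lysosome membranes, had 109, 85.2 and 100.1 TPM in ETA sheets and 125, 96.5 and 109 TPM in epidermal sheets. Groups overlapped in all 4, and each was called higher after centring, with log2 fold changes of 1.52 for Ube2b, 1.44 for Rnf10, 1.22 for Ube2l3 and 1.30 for Rnf167.

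The falls that held after centring were 14. Rnf141 had the lowest log2 fold change, with 0.958, 2.17 and 0.264 TPM in ETA sheets and 15.8, 56.4 and 25.4 TPM in epidermal sheets (log2 -3.89 ± 0.50 SE, limma adjusted p = 0.000177; -2.42 after centring). Rnf43, which takes Frizzled receptors of Wnt signals off the cell surface, had 1.03, 0.388 and 0.952 TPM in ETA sheets and 16.3, 22.8 and 20.2 TPM in epidermal sheets (25.0-fold lower, log2 -3.54 ± 0.29 SE, limma adjusted p = 2.34e-05). Ube2t, the E2 of the Fanconi anaemia pathway of DNA crosslink repair, had 0.384, 0 and 0.212 TPM in ETA sheets and 9.16, 9.40 and 11.3 TPM in epidermal sheets (log2 -3.20 ± 0.32 SE, limma adjusted p = 4.93e-05). Rnf43 and Ube2t averaged 0.789 and 0.199 TPM in ETA sheets, so they passed the level of 1 TPM through the epidermal sheets alone. The direction of their calls was set by that. All 3 genes were near the lower end of measurement in ETA sheets. The cell cycle list, 8 genes of dividing cells, was also near 0 there, at 1.82 to 3.51 TPM summed in ETA sheets and 116 to 132 TPM in epidermal sheets. Whether the level of that list had a part in these falls was not tested.

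The other falls spanned several roles. Rnf144b, an RBR ligase, had 4.05, 1.10 and 3.02 TPM in ETA sheets and 23.8, 26.3 and 31.6 TPM in epidermal sheets (limma adjusted p = 0.000108; log2 -1.54 after centring). Rnf138, which acts in the repair of DNA breaks, had 3.38, 0.629 and 1.74 TPM in ETA sheets and 16.8, 14.3 and 19.6 TPM in epidermal sheets (log2 -2.72). Rnf114, whose human gene lies in a susceptibility region for psoriasis, had 6.20, 2.86 and 2.95 TPM in ETA sheets and 28.5, 24.0 and 27.3 TPM in epidermal sheets (log2 -2.52). In each of these the highest ETA sheet was replicate 1. That no ETA sheet reached the epidermal sheets was a condition of the list of largest falls from which they come. Of all genes tested, 65.5% lay wholly lower in ETA sheets in this way. Rnf220 had 18.8, 9.10 and 9.04 TPM in ETA sheets and 67.3, 71.2 and 74.7 TPM in epidermal sheets (log2 -2.51). Ube2z, which receives ubiquitin from the alternative activating enzyme Uba6, had 14.2, 8.46 and 7.62 TPM in ETA sheets and 58.8, 62.0 and 58.9 TPM in epidermal sheets (log2 -2.50). Rnf145, which acts on the cholesterol synthesis enzyme HMG-CoA reductase, averaged 6.91 TPM in ETA sheets and 35.5 TPM in epidermal sheets (log2 -2.25). Ube2w, which attaches ubiquitin to the amino terminus of proteins, fell as deposited with 6.18, 0.564 and 4.07 TPM in ETA sheets and 18.5, 21.4 and 24.8 TPM in epidermal sheets (log2 -2.54), and was not called after centring. Across the 59 members called lower, 49 were highest in ETA sheet replicate 1 and 40 were lowest in replicate 2. These counts were not made over all genes called lower, so they cannot be read as a trait of the members. ETA sheet replicate 2 was the library with the most genes listed at 0. Among genes that averaged 10 TPM or more, 209 were at 0 in it and 31 to 55 in the others.

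**Figure D5:**
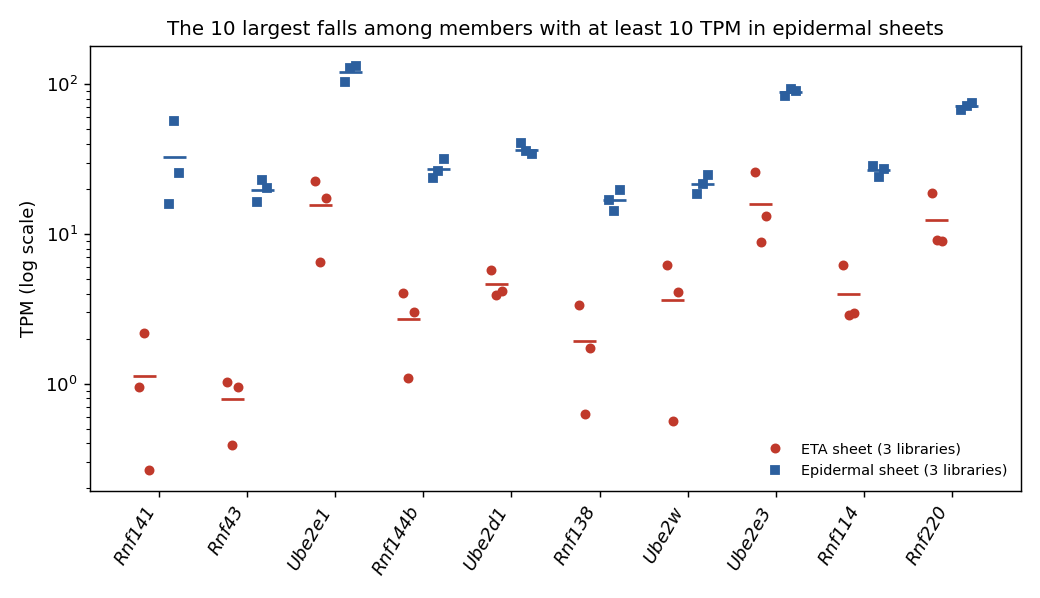
TPM (log axis) of the 10 members with the largest falls among those with at least 10 TPM in epidermal sheets; circles are ETA sheets, squares epidermal sheets and lines group means. Groups without overlap were a condition in choosing these 10, so their separation is not a result. ETA sheet values spread widely on this scale, as in Ube2w with 0.564 to 6.18 TPM.

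By role, the counts of the ligase classes are set beside the 10.5% higher and 63.2% lower among all genes tested, and after centring beside 29.9% higher and 19.5% lower. Of 8 ligases of chromatin and DNA damage, 0 rose by limma and 7 fell, with the same counts at an unadjusted p under 0.05 and a median log2 fold change of -1.33, close to the -1.31 of all genes. After centring 1 was higher and 0 lower. Rnf4, which marks SUMO-bearing proteins, had 33.4, 18.3 and 25.1 TPM in ETA sheets and 52.1, 73.1 and 70.8 TPM in epidermal sheets (log2 -1.34, 0.12 after centring). Rnf20, which with Rnf40 acts on histone H2B, averaged 7.77 TPM in ETA sheets and 32.3 TPM in epidermal sheets (log2 -1.99), and Rnf168, which acts at DNA double-strand breaks, averaged 2.74 TPM in ETA sheets and 12.8 TPM in epidermal sheets (log2 -1.90). The exception was Rnf111, not called at 11.9, 10.2 and 10.1 TPM in ETA sheets and 10.3, 16.9 and 16.6 TPM in epidermal sheets. Ube2s, the E2 that extends chains for the anaphase-promoting complex in mitosis, still had 47.9, 57.9 and 49.3 TPM in ETA sheets, against 201, 193 and 172 TPM in epidermal sheets (log2 -1.85 ± 0.18 SE, limma adjusted p = 4.41e-05; -0.38 after centring, not called).

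Of 7 RBR ligases with RNF names 1 rose and 5 fell, and the median change was -1.70 on the log2 scale; after centring 3 were higher and 1 lower. Of 7 ligases of endosome and lysosome membranes 0 rose and 6 fell by limma, the same at an unadjusted p under 0.05, with a median of -1.54. After centring their median was -0.07, with 2 higher and 1 lower. Rnf215, of that class, averaged 3.73 TPM in ETA sheets and 16.9 TPM in epidermal sheets (log2 -1.98). Of 8 ligases of the endoplasmic reticulum membrane 2 rose and 4 fell, with a median of -0.52, and after centring 5 were higher and 1 lower. Within that class Rnf5, a close relative of the riser Rnf185, had 23.1, 7.22 and 16.3 TPM in ETA sheets and 42.9, 65.0 and 68.0 TPM in epidermal sheets (log2 -1.96 ± 0.39 SE, limma adjusted p = 0.00187). The ratio of the pair thus differed between the sheets: by mean TPM Rnf185 was above Rnf5 in ETA sheets (44.5 against 15.5) and below it in epidermal sheets (17.2 against 58.6). Of 6 ligases of inflammation and innate immunity 1, Rnf11, rose and 4 fell, with a median of -1.48, and after centring 1 was higher and 1 lower. Rnf135, which activates the RNA sensor RIG-I in human cells, had 0.201, 0 and 0 TPM in ETA sheets and 5.61, 4.16 and 3.56 TPM in epidermal sheets. Rnf135 passed the level of 1 TPM through the epidermal sheets alone. Of 3 ligases of ribosome quality control, Rnf14 fell, and Rnf10 and Rnf25 were not called; after centring 2 were higher and 0 lower.

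Outside the 97 members, other genes of the pathway also moved in both directions, again against 10.5% higher and 63.2% lower among all genes tested. Of 9 activating enzymes tested, 1 rose and 7 fell (3 higher and 1 lower after centring), and Uba1, the main one for ubiquitin, was not called at 98.3 ± 16.5 TPM in ETA sheets and 107 ± 3.26 TPM in epidermal sheets (limma adjusted p = 0.529). Sae1, a subunit of the SUMO activating enzyme, had 12.1, 1.80 and 4.58 TPM in ETA sheets and 70.7, 79.3 and 77.3 TPM in epidermal sheets. The ubiquitin-like modifiers were 1 higher, Isg15, and 8 lower of 9, and after centring 1 higher and 3 lower. Of 14 cullin ligase core genes 1 rose and 13 fell; centred, 3 were higher and 3 lower. Cul3 rose with 358, 476 and 456 TPM in ETA sheets against 88.8, 109 and 103 TPM in epidermal sheets (4.29-fold), while Ddb1 averaged 26.9 TPM in ETA sheets and 156 TPM in epidermal sheets.

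Of 21 HECT ligases tested 6 rose and 10 fell (11 higher and 2 lower after centring), with Nedd4 8.35-fold lower in ETA sheets. Of 46 RING ligases with other names 3 rose and 36 fell, a median log2 fold change of -1.54, and after centring 8 were higher and 9 lower. Of 60 deubiquitinases, which take ubiquitin off again, 9 rose and 41 fell, with a median of -1.20, whereas after centring 24 were higher and 6 lower. Usp2 had 178, 227 and 198 TPM in ETA sheets and 16.1, 24.2 and 19.8 TPM in epidermal sheets (log2 3.28 ± 0.21 SE, limma adjusted p = 8.89e-06), and Otub2 had 123, 175 and 171 TPM in ETA sheets and 12.9, 18.5 and 16.7 TPM in epidermal sheets (log2 3.20 ± 0.23 SE). Of 6 U-box ligases Ube4b rose 3.06-fold and 3 fell (3 higher and 2 lower after centring), with Prpf19, also a splicing factor, 11.6-fold lower. Of 7 E2 enzymes with other names 0 rose by limma and 5 fell, the same at an unadjusted p under 0.05. After centring 2 of them were higher and 1 lower. The shares called higher ran from 0% for that list to 28.6% for HECT ligases, against 17.5% of the members and 10.5% of all genes tested.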

How the data were processed

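The deposited table holds the TPM that the authors computed for 37903 transcripts in 6 libraries (total RNA, directional kit, paired 25 bp reads), per the labels and the file header. The submitters' processing notes name Salmon, Bowtie2 and mm9, without versions or roles. TPM keep no depth, so counting error is unknown. The library number in header and title ties each column to its sample.

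TPM were summed per symbol, with 7786 of 7951 transcripts lacking one named by RefSeq record, and genes averaging 1 TPM or more were tested with limma 3.58.1 (R 4.3.3; trended empirical Bayes on log2(TPM + 1), Benjamini-Hochberg), a scale that understates changes of low genes. A fold is the ratio of the group means. The fit was tested on simulated data. Tables and figures used Python 3.11.15, pandas 2.3.3, numpy 2.4.6 and matplotlib 3.10.9.

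Members, lists and tests were chosen with earlier results of these data known. Named members are, per direction, the 10 largest non-overlapping changes that reach 10 TPM in the higher group, the 10 most abundant, per role class the most abundant and up to 2 called per direction, those whose leading transcript differs, and those nearest 1 TPM; further lists follow the role rule. Chd3, Rnf40, Rnf152, Rnf224, Ube2ql1 and the genes of the closing part's other observations were named after their values were seen. Replicate numbers are not known to pair the sheets, and deviations of same-numbered sheets were hardly correlated (0.021, -0.018 and -0.030). These correlations cannot show whether such sheets shared an animal. Some genes that the rule names are not reported here.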

Additional observations from a re-analysis of the deposited data

How the results depend on the processing

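Grouping by header names ended every call, and scaling moved the counts and their balance. Median centring gave 42 members higher and 14 lower (16 and 5 of the UBE2 members, 26 and 9 of the RNF members) with a median log2 fold change of 0.36, and trimmed-mean scaling gave 39 and 21 (14 and 6, 25 and 15) with 0.13, against 24.5% and 26.1% of all genes. Centring with the replicate block, chosen after seeing the data, gave 40 and 13 (14 and 5, 26 and 8). Rescaling without the 100 most abundant genes gave 11 UBE2 members higher and a median of -0.59. By header names 0 members of either family were called higher or lower by limma, and the median was -0.46. At an unadjusted p under 0.05 stood 0 members, against 73 of all 12558 genes tested. The ratio of UBE2 sums was 0.959 with deposited symbols only, 1.13 by header names, 3.48 with trimmed-mean scaling and 1.87 rescaled, and that of RNF sums was 1.90, 1.59, 7.77 and 4.17 in the same settings. With 1 library left out, 16 to 18 members were higher and 53 to 59 lower.

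The replicate numbers are not known to pair the sheets, and the fit with the replicate block gave 17 higher and 55 lower. Library weights gave 20 and 60, and rested mostly on ETA sheet replicate 3 (weight 5.30, against 0.365 and 0.337 for the other two). Other pseudocounts, filters and variance settings kept both counts within 1.5 times.

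Single genes changed the sign of their log2 fold change. Under median centring it was 1.44 for Cdc34, 0.17 for Eif3f, 0.54 for Elob, 1.44 for Rnf10, 1.08 for Rnf111, 0.84 for Rnf112, 1.30 for Rnf167, 1.03 for Rnf170, 1.40 for Rnf216, 0.12 for Rnf4, 0.92 for Rnf44, 1.39 for Stub1, 1.33 for Uba1, 0.61 for Ube2a, 0.00 for Ube2d2a, 0.41 for Ube2g1, 0.62 for Ube2j2, 1.22 for Ube2l3 and 0.61 for Ube2m. With trimmed-mean scaling it was 1.38 for Cdc34, 0.12 for Eif3f, 0.48 for Elob, 1.38 for Rnf10, 0.93 for Rnf111, 1.24 for Rnf167, 0.91 for Rnf170, 1.28 for Rnf216, 0.04 for Rnf4, 0.83 for Rnf44, 1.32 for Stub1, 1.27 for Uba1, 0.51 for Ube2a, 0.32 for Ube2g1, 0.50 for Ube2j2, 1.16 for Ube2l3 and 0.54 for Ube2m. Rescaled without the 100 most abundant genes it was 0.51 for Cdc34, 0.51 for Rnf10, 0.11 for Rnf111, 0.37 for Rnf167, 0.08 for Rnf170, 0.45 for Rnf216, 0.46 for Stub1, 0.40 for Uba1 and 0.29 for Ube2l3. With library weights it was 0.11 for Cdc34, with the largest transcript 0.50 for Rnf111, and with deposited symbols only 0.50 for Rnf111 and 1.63 for Rnf170. By header names it was 0.07 for Cdc34, 1.02 for Rnf112, -0.02 for Rnf25, -0.07 for Ube2b, -0.06 for Ube2f and -0.05 for Ube2v1. With 1 library left out the values ran from -0.04 to 0.14 for Ube2b, -0.20 to 0.08 for Cdc34, -0.09 to 0.03 for Rnf10, -0.25 to 0.01 for Stub1, -0.01 to 0.25 for Rnf25 and -1.19 to 0.20 for Rnf112. Under median centring the shift follows from its construction, which adds the same amount to every gene. For the others, where the shift differed between genes, the cause was not tested.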

Other observations

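The genes beside the rising members moved in both directions. Of 38 tested genes within 2 places of the 17 members called higher, members left out, 8 (21.1%) were higher and 20 lower in ETA sheets, against 10.5% higher among all genes tested. One run stood out on chromosome 2, where the gene table puts Rnf224, Cysrt1, Rnf208 and Ndor1 side by side and all 4 were higher. Rnf224 had 6.42, 11.5 and 11.9 TPM in ETA sheets and 1.08, 4.82 and 1.15 TPM in epidermal sheets (log2 1.84 ± 0.45 SE, limma adjusted p = 0.00573). Cysrt1, which encodes a cysteine-rich tail protein, had 1407, 1650 and 1854 TPM in ETA sheets and 234, 219 and 165 TPM in epidermal sheets (log2 2.99 ± 0.19 SE, limma adjusted p = 9.33e-06). Ndor1 had 57.7, 43.2 and 65.4 TPM in ETA sheets and 32.9, 35.2 and 36.8 TPM in epidermal sheets (log2 0.63 ± 0.21 SE, limma adjusted p = 0.0250). In all 4 genes ETA sheet replicate 3 was highest. The run was picked after its values were seen.

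Subunits of the CTLH complex, the ligase that works with Ube2h, were looked at after the rise of Ube2h was known. Of 11 genes of the complex and close relatives, 5 were higher, 4 lower and 2 not called in ETA sheets. Among all genes tested 10.5% were higher and 63.2% lower. After median centring 7 of the 11 were higher and 0 lower, against 29.9% and 19.5% of all genes tested. Rmnd5a, a RING subunit and itself a neighbour of Rnf103, had 280.1, 317 and 319.6 TPM in ETA sheets and 64.2, 73.7 and 64.4 TPM in epidermal sheets (4.53-fold, log2 2.16 ± 0.17 SE, limma adjusted p = 1.84e-05). Wdr26, a substrate-binding subunit, had 271, 355 and 327 TPM in ETA sheets and 61.3, 78.8 and 69.4 TPM in epidermal sheets (4.55-fold, log2 2.17 ± 0.19 SE). Maea, the RING partner of Rmnd5a, was not called at 84.3, 53.3 and 90.0 TPM in ETA sheets and 68.6, 84.9 and 83.4 TPM in epidermal sheets. Armc8, a scaffold subunit, was lower, with 4.49, 1.08 and 3.10 TPM in ETA sheets and 11.5, 14.5 and 15.3 TPM in epidermal sheets. Erythroid RNA was higher in ETA sheets too, and its part in these values was not tested.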
